A study of Mus musculus with 8 samples.

Results

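The S100 family of small calcium-binding proteins was followed in macrophages sorted from mouse malignant ascites. The 8 genes described are *S100a1*, *S100a4*, *S100a6*, *S100a8*, *S100a9*, *S100a10*, *S100a11* and *S100a13*, 8 of the 23469 genes in the expression table. They were selected by symbol, with *S100a4* and *S100a8* known from these libraries to differ in opposite directions, so their own differences are given as a description with no test. Of the 8, 7 averaged 1 TPM or more over the libraries (TPM is transcript abundance scaled by gene length and by library) and entered the fit across 8801 genes. *S100a9* did not.

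The libraries came from Ms4a3Cre-RosaTdT monocyte fate-mapping female mice on a C57BL/6 background, 4 to 5 weeks of age, that received ID8 mouse ovarian cancer cells in the peritoneal cavity and were taken at 65 days. In these mice Cre under the *Ms4a3* promoter, active in granulocyte-monocyte progenitors, leaves a permanent tdTomato label in their progeny. F4/80+ CD11b+ macrophages of the ascites, negative for Ly6G, SiglecF and Ly6C, were sorted into tdTomato-negative cells, named embryonic-derived (AeEM), and tdTomato-positive cells, named monocyte-derived (AeMM), with 4 Smart-seq2 libraries each. The AeEM group rests on the absence of the label, and all 8 libraries share the tumor and the reporter background. No healthy peritoneal macrophages were among the libraries, and the labels do not say which AeEM and AeMM libraries share a mouse.

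S100 proteins carry a pair of EF-hand loops, the helix-loop-helix fold that binds calcium, and work as dimers. Inside cells they bind cytoskeletal, annexin and signaling partners when calcium rises. Several are also released and act on pattern receptors of myeloid cells. S100A8 and S100A9 form calprotectin, a zinc- and manganese-binding complex that is abundant in neutrophils and monocytes and usually declines as monocytes mature into macrophages. S100A4 binds non-muscle myosin IIA and is linked with cell motility, and S100A10 forms a complex with annexin A2 at the membrane.

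Most of these genes lie in one block of mouse chromosome 3. In GENCODE M21 on mm10, *S100a1* spans chr3:90511034-90514392 on the minus strand and *S100a13* spans chr3:90514435-90524581 on the plus strand, with 42 bases between them. *S100a4* lies at chr3:90603771-90606045, *S100a6* at chr3:90612882-90624181 and *S100a8* at chr3:90668978-90670035, all on the plus strand. *S100a9* lies at chr3:90692632-90695721 on the minus strand. *S100a11* at chr3:93520488-93526287 and *S100a10* at chr3:93555080-93564643 form a separate pair on the plus strand about 3009.5 kb and 3044 kb from the start of *S100a1*. No exonic base of 7 of the 8 members is shared with another annotated gene. The exception is *S100a4*, in which 302 of 584 exonic bases (51.7%) are also exons of Gm42674 on the same strand, so reads in those bases could belong to either gene.

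The start-site sequences of the members whose levels stood furthest apart in the comparison are shown because both carry a TATA box close to the start. RefSeq windows on GRCm38.p6, from 250 bases before to 50 bases after each start, were matched for 7 of the 8 members, all but *S100a10*. The motif TATAAA, searched on both strands, occurred in 13.6% of 32817 such windows. It began at position -31 in *S100a4*, at position -30 in *S100a8* and at position 1, the annotated start itself, in *S100a9*. The windows of *S100a1*, *S100a6*, *S100a11* and *S100a13* did not hold these letters. Capitals mark TATAAA in the 100 bases before the start of *S100a4* (chr3:90603670-90603769) and of *S100a8* (chr3:90668971-90669070), and in 80 bases before to 20 bases after the start of *S100a9* (chr3:90695702-90695801, minus strand). For *S100a8*, GENCODE begins its gene 93 bases upstream of the RefSeq start.
S100a4: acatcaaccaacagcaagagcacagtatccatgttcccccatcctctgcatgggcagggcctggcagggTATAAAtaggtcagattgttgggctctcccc
S100a8: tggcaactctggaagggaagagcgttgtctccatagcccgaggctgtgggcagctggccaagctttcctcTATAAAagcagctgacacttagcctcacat
S100a9: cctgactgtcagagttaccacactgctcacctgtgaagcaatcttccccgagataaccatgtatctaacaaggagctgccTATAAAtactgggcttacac

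The AP-1 motif TGANTCA, present in 7.81% of all windows, was found among the members only in *S100a11*, at positions -136 and -38. The 145 bases before its RefSeq start (chr3:93520351-93520495) are shown with both matches in capitals, as a contrast to the TATA-bearing members.
S100a11: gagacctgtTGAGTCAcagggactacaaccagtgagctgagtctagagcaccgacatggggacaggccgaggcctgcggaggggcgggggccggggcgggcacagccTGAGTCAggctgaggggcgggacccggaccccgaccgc

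The PU.1 core GAGGAA, present in 28.3% of windows, occurred at positions -170 and -36 in *S100a8*, at -153 in *S100a11* and at 20 in *S100a4*. The C/EBP motif TTGCNNAA, present in 10.8% of windows, occurred only in *S100a9*, at -236. None of these matches overlapped another, and no match of the 4 motifs lay in the windows of *S100a1*, *S100a6* or *S100a13*. A match describes letters in the window, not binding.

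The values were deposited as log2(TPM + 1) and had been adjusted between 3 sets of libraries, namely replicate 1, replicate 2, and replicates 3 and 4 together, so that each gene had nearly the same mean in every set. Within replicate 1 and within replicate 2 the AeEM and AeMM values therefore mirror each other. The paper does not describe this adjustment, which shows in the values. Over the genes tested, the median absolute difference between set means was 0.0041 to 0.0094, against 0.2105 between replicates 3 and 4. Back-transformed values summed to between 958862 and 974303 TPM per library, and between 8498 and 8753 genes reached 1 TPM in each. No read counts were used, so the depth is unknown and precision rests on the 4 libraries per group. The macrophage markers *Adgre1*, *Itgam*, *Csf1r*, *Cd68*, *Mertk*, *Fcgr1* and *Lyz2* were all present, and none of the 7 passed the test between groups. Even so, 4 of the 7 had no overlap between the groups, beside 12.2% of all genes tested, and 6 of the 7 were lower in AeEM. In such bulk samples, fewer cells of a type and less RNA per cell cannot be told apart.

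In AeEM the S100 transcripts were led by *S100a4*, and in AeMM *S100a4* and *S100a1* stood side by side. *S100a4* averaged 306 ± 42.4 TPM in AeEM and 142 ± 30.6 TPM in AeMM (SD, n = 4 each). *S100a8* ran the other way, at 11.3 ± 1.04 TPM in AeEM and 24.3 ± 3.78 TPM in AeMM. These were the only members, of the 7 tested, whose AeEM and AeMM libraries did not overlap. Over all genes tested, 12.2% had no overlap between the groups.

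*S100a4* had 253, 296, 324 and 353 TPM in AeEM replicates 1 to 4, against 177, 142, 102 and 145 TPM in AeMM replicates 1 to 4. Every AeEM library lay above every AeMM library, with the narrowest gap between the libraries of replicate 1. On the log2(TPM + 1) scale the difference, AeEM minus AeMM, was 1.13 ± 0.16 (SE), a 2.18-fold higher level. The difference was 0.52 within replicate 1, 1.06 within replicate 2 and 1.46 within replicates 3 and 4, so its direction was the same in each set while its size varied.

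*S100a8*, the smaller subunit of calprotectin, had 11.5, 10.5, 12.7 and 10.5 TPM in AeEM, against 23.0, 25.7, 28.7 and 19.8 TPM in AeMM. The AeEM libraries were close together, and the lowest AeMM library was still above the highest of them. The difference was -1.03 ± 0.12 (SE), a 2.05-fold higher level in AeMM. All sets gave a negative value, -0.94 for replicate 1, -1.22 for replicate 2 and -0.99 for replicates 3 and 4 together.

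*S100a9*, the partner of *S100a8* in calprotectin, was close to absent. Its TPM values were 0.0971, 0.082, 0 and 0 in AeEM, and 0.239, 0.2703, 1.02 and 0.00487 in AeMM. Only AeMM replicate 3 reached 1 TPM, and AeMM replicate 4 was at the level of the AeEM libraries. In AeMM, *S100a8* thus stood at 19.8 to 28.7 TPM in libraries where *S100a9* was at most 1.02 TPM.

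**Figure D1:**
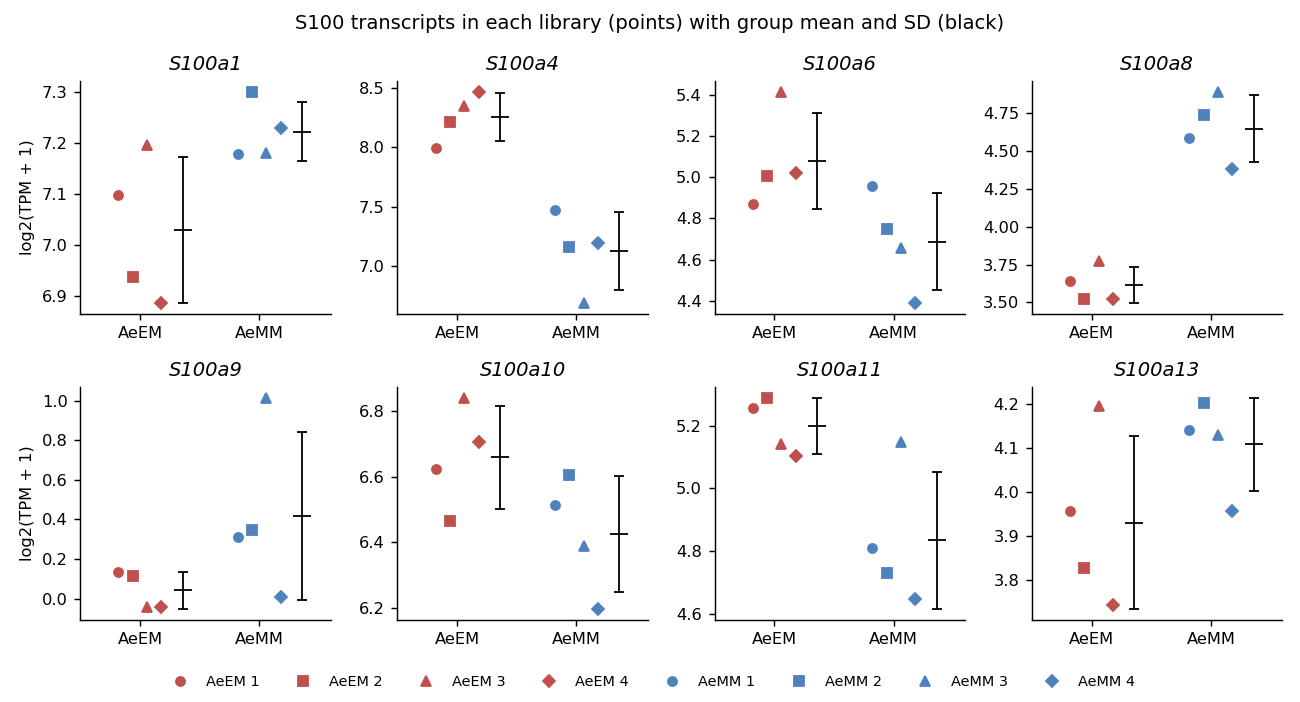
Each panel plots one S100 gene, with log2(TPM + 1) on the y axis (each panel has its own scale) and the 4 AeEM libraries left of the 4 AeMM libraries; marker shapes give the replicate number, and black bars give the mean and SD. *S100a4* and *S100a8* are the panels in which the groups do not overlap, among the 7 genes tested.

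Among the remaining members, *S100a6*, *S100a10* and *S100a11* had positive differences and *S100a1* and *S100a13* negative ones, all smaller than 0.5 on the log2 scale. *S100a6* (calcyclin), a partner of the ubiquitin-ligase adaptor CacyBP, had 28.3, 31.2, 41.7 and 31.4 TPM in AeEM, against 30.1, 25.9, 24.2 and 19.9 TPM in AeMM. The groups overlapped only through the libraries of replicate 1. Its difference was 0.39 ± 0.15 (SE), with -0.09 within replicate 1, 0.26 within replicate 2 and 0.70 within replicates 3 and 4.

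*S100a10*, which unlike its relatives holds its active shape without calcium, had 97.6, 87.3, 114 and 104 TPM in AeEM, against 90.3, 96.5, 82.7 and 72.3 TPM in AeMM. AeEM replicate 2 lay below AeMM replicates 1 and 2, and the difference was 0.23 ± 0.11 (SE). The sign was not the same in every set, with 0.11 within replicate 1, -0.14 within replicate 2 and 0.48 within replicates 3 and 4.

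*S100a11*, a partner of annexin A1, had 37.3, 38.1, 34.3 and 33.4 TPM in AeEM, against 27.05, 25.55, 34.46 and 24.05 TPM in AeMM. AeMM replicate 3 alone reached the AeEM range, and the other AeMM libraries lay below all 4 AeEM libraries. The difference was 0.36 ± 0.11 (SE), and 0.47 without AeMM replicate 3.

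*S100a1*, best known for regulating calcium release in muscle, had 136, 122, 146 and 117 TPM in AeEM, against 144, 157, 144 and 149 TPM in AeMM. Its difference of -0.19 ± 0.08 (SE) came with overlap in a single library, AeEM replicate 3. *S100a13*, its head-to-head neighbor and a carrier for export of FGF1 and IL-1α, had 14.5, 13.2, 17.3 and 12.4 TPM in AeEM, against 16.7, 17.4, 16.5 and 14.5 TPM in AeMM, a difference of -0.18 ± 0.11 (SE). In both genes AeEM replicate 3 was the highest AeEM library.

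Of the 7 members tested, 1 (*S100a4*) was past the limma threshold as higher in AeEM and 1 (*S100a8*) as lower, where 1.25% of all genes tested were called higher and 1.16% lower. Nothing is read from these counts, since the members were chosen on this contrast. When the 3 sets entered the fit as a term, 0.159% of all genes were called in either direction, and 0 of the 7 members were past the threshold. The differences themselves were the same in that fit, and the SE was 0.18 for *S100a4* and 0.15 for *S100a8*. *S100a4* ranked 73 and *S100a8* 109 by absolute difference among the 8801 genes and the next member, *S100a6*, ranked 1283. The median difference of the 7 members was 0.23, against -0.01 over all genes tested.

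**Figure D2:**
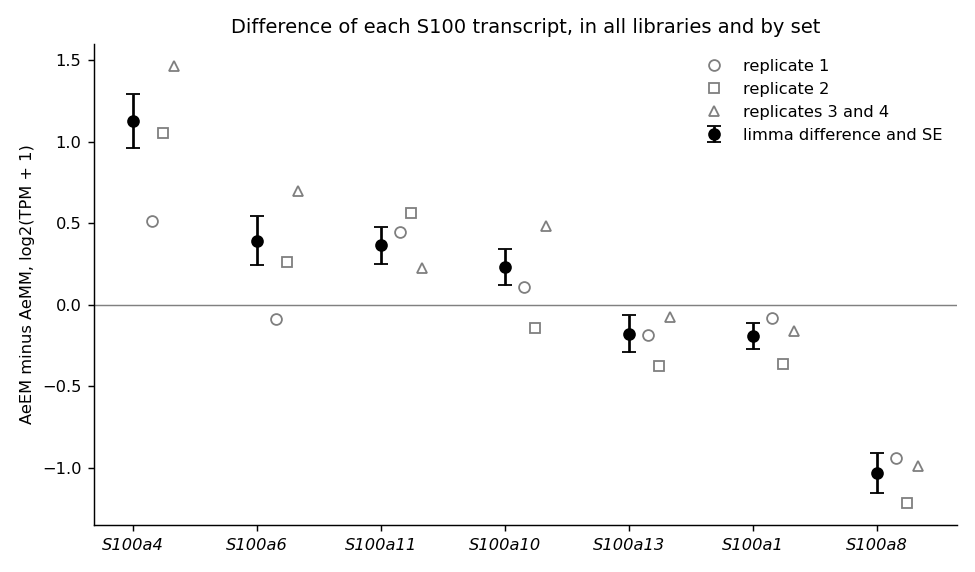
The y axis gives AeEM minus AeMM in log2(TPM + 1) for the 7 S100 genes tested; black points and bars are the limma difference and its SE, and open symbols are the same difference within replicate 1, replicate 2, and replicates 3 and 4. *S100a4* stands at 1.13 and *S100a8* at -1.03 with all sets on one side of 0, whereas *S100a6* and *S100a10* each have a set on the other side.

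The replicate spread of the members lay on both sides of the median over all genes tested. It was taken after the adjustment between sets, which can change it. The pooled within-group SD ran between 0.11 for *S100a1* and 0.27 for *S100a4* on the log2 scale, beside a median of 0.20 over the 8801 genes tested and 0.17 over the 3210 genes with a mean of 10 TPM or more. *S100a1* was thus the steadiest member and *S100a4* the most variable.

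Because TPM is scaled by transcript length, levels can be set side by side between members, with a limit for *S100a4*. How reads in the exonic bases that it shares with Gm42674 were counted is not known. The place of *S100a4* beside other members, its ratios and its shares are therefore less certain. In AeEM the order by mean TPM was *S100a4*, *S100a1* (130 ± 13.1), *S100a10* (101 ± 11.04), *S100a11* (35.8 ± 2.29), *S100a6* (33.2 ± 5.90), *S100a13* (14.4 ± 2.16), *S100a8* and *S100a9* (0.0448 ± 0.0521; SD, n = 4). *S100a11* and *S100a6* were not separated there, with *S100a11* above *S100a6* in 3 of the 4 libraries, and the ranges of *S100a13* and *S100a8* touched. In AeMM the order was *S100a1* (148 ± 6.03), *S100a4*, *S100a10* (85.4 ± 10.4), *S100a11* (27.8 ± 4.62), *S100a6* (25.0 ± 4.19), *S100a8*, *S100a13* (16.3 ± 1.24) and *S100a9* (0.384 ± 0.441; SD, n = 4). There *S100a1* exceeded *S100a4* in 3 of the 4 libraries and *S100a11* exceeded *S100a6* in 2 of the 4. *S100a6* exceeded *S100a8* in 3 of the 4 with overlapping ranges, so none of these 3 neighboring pairs was separated.

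The places of the opposed members in this order, and their ratio, restate the differences on which they were chosen. In AeMM the ranges of *S100a1* and *S100a4* overlapped, so a change of place is not established for that pair. *S100a4* was above *S100a1* in 4 of 4 AeEM libraries and in 1 of 4 AeMM libraries. *S100a8* was above *S100a13* in 0 of 4 AeEM libraries and in 4 of 4 AeMM libraries. The ratio of *S100a4* to *S100a8* TPM was 22.1 to 33.6 in AeEM and 3.56 to 7.70 in AeMM.

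The 8 transcripts summed to between 579 and 690 TPM in AeEM libraries and between 434 and 508 TPM in AeMM libraries. Without *S100a4* the sums were 302 to 366 TPM in AeEM and 299.8 to 348 TPM in AeMM, so the ranges of the rest of the family overlapped. *S100a4* made up 48.4 ± 4.04% of the summed TPM in AeEM and 29.99 ± 4.93% in AeMM, while *S100a8* made up 1.79 ± 0.165% in AeEM and 5.21 ± 1.003% in AeMM (SD, n = 4 each).

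**Figure D3:**
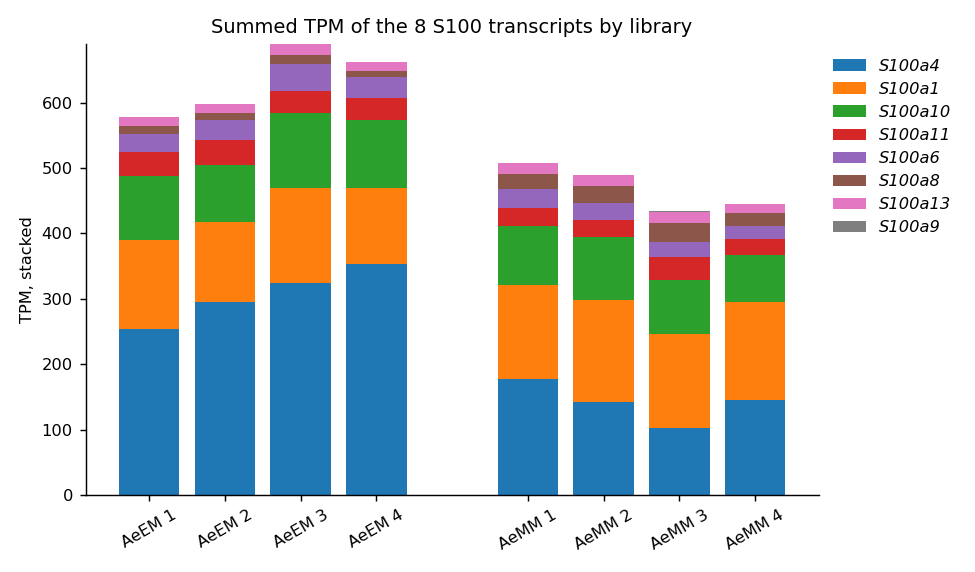
Stacked bars give the TPM of the 8 S100 genes (y axis, starting at 0) in each library (x axis), with AeEM libraries left of AeMM libraries. The *S100a4* block at the base runs between 253 and 353 TPM in AeEM and between 102 and 177 TPM in AeMM, and accounts for most of the gap in total height.

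Within the chromosome 3 block the differences had both signs. With *S100a4* and *S100a8* chosen as opposed, this was fixed in advance and is given as a description. *S100a4* and *S100a6*, whose starts lie 92.7 kb and 101.8 kb from that of *S100a1*, had positive differences, while *S100a8*, at 157.9 kb, had a negative one. *S100a5*, between *S100a4* and *S100a6*, was at most 0.03 on the log2(TPM + 1) scale in every library. *S100a2* and *S100a3*, upstream of *S100a4*, were also near 0 in all libraries. The distant pair *S100a11* and *S100a10* had differences of 0.36 and 0.23.

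**Figure D4:**
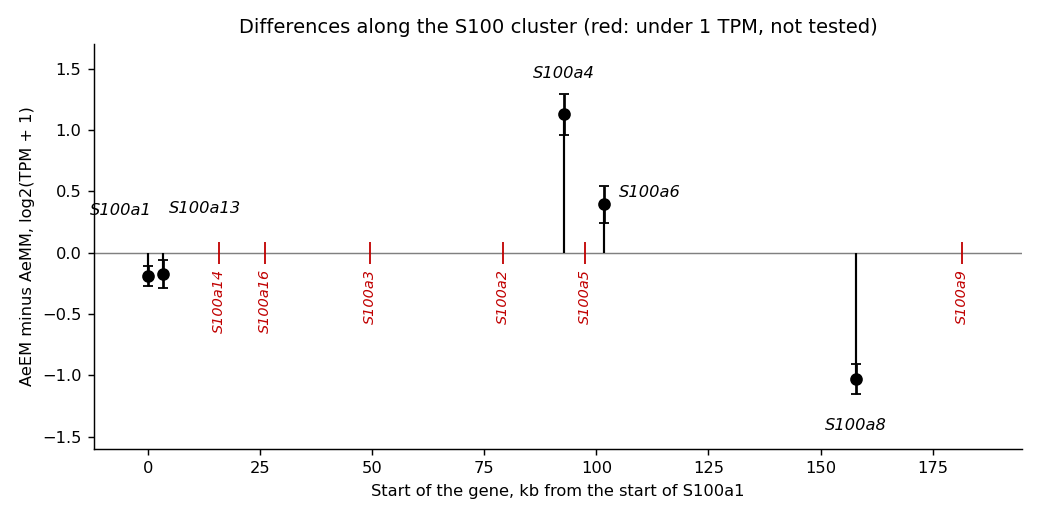
The x axis gives the start of each gene in kb from the start of *S100a1* and the y axis AeEM minus AeMM in log2(TPM + 1); black points with bars are the limma difference and SE of the 5 tested members in the block, and red ticks mark S100 genes under a mean of 1 TPM, which were not tested. *S100a4* and *S100a6* lie above 0 and *S100a8* below it.

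The other S100 family genes in the table, 7 of 11 looked up, were all under a mean of 1 TPM. *S100a16*, the highest of these in AeMM, had log2(TPM + 1) values of 0.21, 0.16, 0.31 and 0.31 in AeEM, against 0.92, 0.997, 1.33 and 0.31 in AeMM. AeMM replicate 4 and AeEM replicates 3 and 4, all in the set of replicates 3 and 4, held the identical value 0.314109. After the adjustment between sets, identical small values above 0 can stand for a gene with no reads. The meeting of the groups there need not reflect measured levels, and without read counts this was not tested. *S100b*, a glial and lymphocyte-associated member, had 0.17, 0.19, 1.68 and 0.11 in AeEM, against 0.83, 0.82, 0.11 and 0.13 in AeMM, with AeEM replicate 3 alone well above the rest of its group. AeEM replicate 4 and AeMM replicate 3 held the identical value 0.106515, so the same limit applies to *S100b*. *S100a14* and *S100g* stayed under 0.5 in every library.

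S100 proteins act through partners, and among those listed only *Anxa2* passed the test. Of 16 partner genes, 11 were tested, and 1 was called higher in AeEM and 0 lower, beside 1.25% and 1.16% of all genes tested. *Anxa2*, which encodes the membrane-binding partner of S100A10, had 73.4, 71.0, 80.2 and 71.5 TPM in AeEM, against 55.2, 56.5, 55.2 and 50.7 TPM in AeMM. Every AeEM library was above every AeMM library, and *Anxa2* rose by 0.44 ± 0.07 (SE; limma adjusted p = 0.0156). The adjusted p was 0.212 with the 3 sets as a term, and leaving out AeEM replicate 1 or 2 or AeMM replicate 1 or 2 also ended the call (limma adjusted p between 0.0521 and 0.0684).

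*Anxa1*, the partner of S100A11 and an inhibitor of inflammatory lipid release, averaged 37.4 ± 3.38 TPM in AeEM and 27.2 ± 3.72 TPM in AeMM, a difference of 0.45 ± 0.11 (limma adjusted p = 0.0795). The binding protein of S100A6, *Cacybp*, averaged 65.1 ± 3.04 TPM in AeEM and 61.8 ± 9.14 TPM in AeMM, a difference of 0.09 ± 0.11 (limma adjusted p = 0.75). *Trp53*, whose product S100A4 binds, averaged 18.5 ± 1.44 TPM in AeEM and 13.1 ± 2.91 TPM in AeMM, a difference of 0.49 ± 0.14 (limma adjusted p = 0.117). *Plgrkt*, a plasminogen receptor that works beside S100A10, averaged 23.6 ± 2.75 TPM in AeEM and 24.9 ± 1.01 TPM in AeMM, a difference of -0.08 ± 0.09 (limma adjusted p = 0.708). Over the 11 genes the median difference was 0.02, against -0.01 over all genes tested, and 10 of the 11 did not pass.

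The listed receptors for released S100 proteins ranged widely in level in both groups, and the most abundant are given here. Of 10 listed, 9 were tested and 0 were called in either direction by limma. Of these 9, 1 had no overlap between the groups, beside 12.2% of all genes tested. *Cd14*, the co-receptor of TLR4, averaged 305 ± 53.6 TPM in AeEM and 298 ± 42.6 TPM in AeMM, a difference of 0.03 ± 0.15 (limma adjusted p = 0.95). *Bsg*, which encodes basigin, a receptor described for S100A9, averaged 245 ± 14.9 TPM in AeEM and 218 ± 25.0 TPM in AeMM, a difference of 0.18 ± 0.09 (limma adjusted p = 0.345). *Cd36*, a scavenger receptor, averaged 59.5 ± 2.16 TPM in AeEM and 64.6 ± 5.25 TPM in AeMM, a difference of -0.11 ± 0.08 (limma adjusted p = 0.484). *Cd33*, a sialic-acid-binding lectin, averaged 33.8 ± 2.98 TPM in AeEM and 47.2 ± 7.32 TPM in AeMM, a difference of -0.46 ± 0.12 (limma adjusted p = 0.0951). It was called lower in AeEM without AeMM replicate 3, the low library of its group. *Ager*, the classical receptor RAGE, was under a mean of 1 TPM and was not tested.

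Among 20 other EF-hand genes, 19 were tested, and 0 were called higher and 1 lower in AeEM, beside 1.25% and 1.16% of all genes tested. *Aif1*, which encodes the EF-hand, actin-bundling macrophage protein IBA1, had 381, 375, 466 and 343 TPM in AeEM, against 632, 631, 636 and 552 TPM in AeMM. The groups did not overlap, and *Aif1* fell by 0.65 ± 0.10 (the difference was -0.65; limma adjusted p = 0.0117; 0.0972 when the sets entered the fit). *Calm2*, a calmodulin gene, averaged 424 ± 36.8 TPM in AeEM and 382 ± 33.6 TPM in AeMM (0.15 ± 0.08; limma adjusted p = 0.414). *Capns1*, the calpain small subunit, had a difference of -0.19 ± 0.13, and *Efhd2*, a swiprosin, one of 0.10 ± 0.09 (limma adjusted p = 0.51 and 0.635). The median over the 19 genes was -0.06.

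*S100a8* and *S100a9* are also neutrophil genes, so the neutrophil list was read beside them. The 13 markers measured summed to between 38.6 and 48.1 TPM in AeEM and between 64.1 and 81.2 TPM in AeMM. Most of that sum was *Prtn3*, the azurophil granule protease proteinase 3, at 26.4 ± 2.48 TPM in AeEM and 52.5 ± 7.13 TPM in AeMM, a difference of -0.96 ± 0.11 (limma adjusted p = 0.00394; 0.0605 when the sets entered the fit). *Csf3r*, the G-CSF receptor, averaged 9.15 ± 1.57 TPM in AeEM and 13.7 ± 2.46 TPM in AeMM (-0.53 ± 0.15; limma adjusted p = 0.112). The other tested markers, the neutrophil proteases *Mmp8* and *Mmp9*, had differences of the opposite sign, 0.58 ± 0.24 and 0.45 ± 0.17, and did not pass (limma adjusted p = 0.245 and 0.193).

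The remaining neutrophil markers were low in mean, though *Elane* reached 2.28 TPM in AeMM replicate 4 and *Lcn2* 2.11 TPM in AeMM replicate 3. *Ly6g*, also listed, had no values. The 9 neutrophil markers with a mean under 1 TPM (*Mpo*, *Elane*, *Ctsg*, *Ngp*, *Camp*, *Ltf*, *Lcn2*, *Retnlg* and *Cxcr2*) summed to between 0.29 and 1.17 TPM in AeEM and between 1.23 and 4.04 TPM in AeMM. AeMM replicate 3, highest for *S100a8* and *S100a9*, was also highest for *Lcn2* (1.64), *Ctsg* (0.99), *Camp* (0.72) and *Ngp* (0.05) on the log2(TPM + 1) scale. *Elane* (1.71) and *Mpo* (0.11) were highest in AeMM replicate 4, the AeMM library with the lowest *S100a8* level, and *Ltf*, *Retnlg* and *Cxcr2* were highest in AeEM libraries, at 0.17 or less. Leaving out each library in turn, AeMM replicate 3 included, gave an *S100a8* difference between -1.12 and -0.95. The part of neutrophil RNA in the *S100a8* level was not tested beyond these values.

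**Figure D5:**
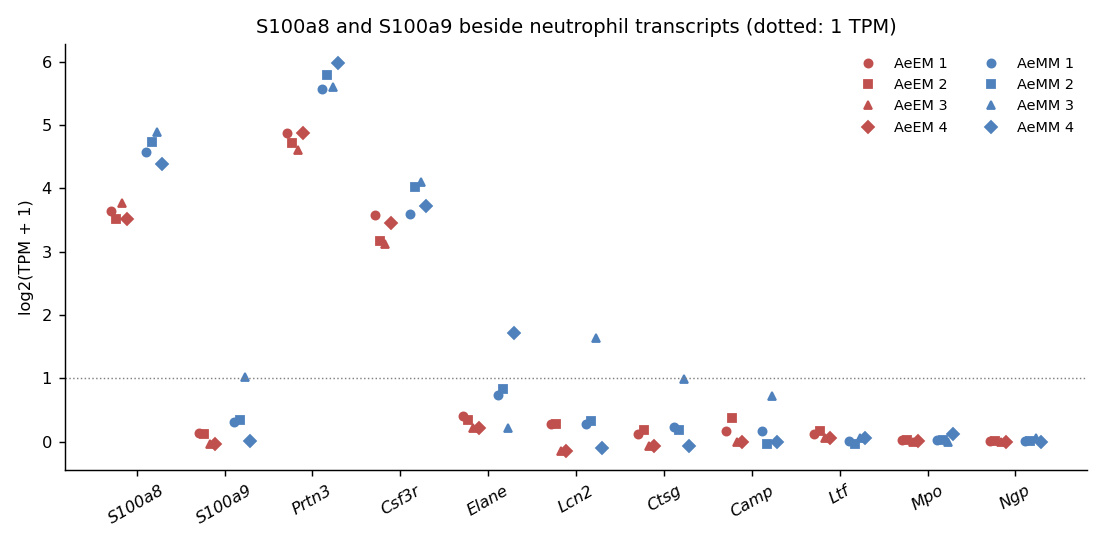
The y axis gives log2(TPM + 1) for *S100a8*, *S100a9* and 9 neutrophil transcripts, with the 4 AeEM libraries (left, red) and the 4 AeMM libraries (right, blue) of each gene; the dotted line marks 1 TPM. *S100a8* and *Prtn3* lie well above the line in all libraries, while *Ltf*, *Mpo* and *Ngp* lie near 0 and the highest library is AeMM replicate 3 (triangle) for *S100a9*, *Lcn2*, *Ctsg* and *Camp* and AeMM replicate 4 (diamond) for *Elane*.

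Markers of recent monocyte origin moved unevenly. The 7 markers summed to between 187 and 278 TPM in AeEM and between 183 and 224 TPM in AeMM, with *Ccr2* the largest part. Of the 6 tested, *Chil3* (-2.16 ± 0.44, limma adjusted p = 0.0434) and *Ly6c2* (-1.55 ± 0.33, limma adjusted p = 0.0478) fell in AeEM, and *Ccr2*, *F13a1* and *Plac8* were among those that did not pass. When the sets entered the fit neither call held (limma adjusted p = 0.203 for *Chil3* and 0.251 for *Ly6c2*). Leaving out any 1 library ended the *Chil3* call (limma adjusted p between 0.0516 and 0.088). Each omission but that of AeEM replicate 3 ended the *Ly6c2* call (limma adjusted p between 0.0647 and 0.144). Without AeEM replicate 3 the *Ly6c2* call held (limma adjusted p = 0.0259). *Nkg7*, listed as a cytotoxic lymphocyte marker, also fell (-2.41 ± 0.35, limma adjusted p = 0.0113; 0.0712 when the sets entered the fit, and 0.051 with no filter). The 4 lymphocyte markers summed to between 0.365 and 3.14 TPM in AeEM and between 5.34 and 15.4 TPM in AeMM.

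Besides *S100a4*, the summed dendritic cell and peritoneal macrophage markers were higher in AeEM libraries. The 8 dendritic cell markers summed to between 131 and 213 TPM in AeEM and between 75.2 and 96.1 TPM in AeMM. Of the 4 tested, 2 were called higher, beside 1.25% of all genes tested. Nothing is read from this count, since the lists were chosen with earlier results known. *Cd209a*, a lectin of monocyte-related dendritic cells, averaged 66.4 ± 26.0 TPM in AeEM and 4.505 ± 2.66 TPM in AeMM (3.65 ± 0.38, limma adjusted p = 0.00294). It passed with the 3 sets as a term too (limma adjusted p = 0.0326). *Itgax*, encoding CD11c, averaged 5.44 ± 1.15 TPM in AeEM and 2.08 ± 0.244 TPM in AeMM (1.05 ± 0.15, limma adjusted p = 0.0109; 0.115 when the sets entered the fit). The dendritic cell genes *Flt3*, *Zbtb46*, *Clec9a* and *Xcr1* were each under a mean of 1 TPM. Their sums overlapped, at 1.08 to 3.40 TPM in AeEM and 0.847 to 3.53 TPM in AeMM.

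The 8 markers of large peritoneal macrophages summed to between 75.3 and 102 TPM in AeEM and between 48.1 and 65.5 TPM in AeMM, with 0 of 5 tested genes called by limma. Their lineage factor *Gata6* was under 1 TPM in mean. Hemoglobin transcripts of the erythroid list summed to between 7663 and 12739.5 TPM in AeEM and between 4207 and 10471 TPM in AeMM, with overlap and 0 of 4 genes called. B cell, eosinophil and epithelial lists gave 0 calls, no mast cell marker reached a mean of 1 TPM, and the ranges of their sums overlapped between the groups. The part of these cell types in the S100 levels was not tested.

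The genes whose profiles lay nearest to the opposed members were ranked by the mean absolute difference between values centered on each gene's own mean, over the 8 libraries and 8168 genes. For *S100a8* they were *Gdf3*, a TGF-β family ligand (0.0726), *Fam43a* (0.102), *Lst1*, a leukocyte membrane adaptor (0.107), *Apoc2*, the cofactor of lipoprotein lipase (0.137), and *Syngr1* (0.138). *Gdf3* averaged 63.4 TPM in AeEM and 124 TPM in AeMM, and *Apoc2* averaged 122 TPM in AeEM and 217 TPM in AeMM. For *S100a4* they were *Ppil1* (0.161), *Spag5* (0.165), *Htra2* (0.165), *Lbhd1* (0.166) and *Acp5*, tartrate-resistant acid phosphatase (0.167). *Acp5* averaged 99.96 TPM in AeEM and 42.5 TPM in AeMM. The neighbors of *S100a8* lay closer to it than those of *S100a4* did, and the points share the libraries and their adjustment, so the likeness is a description.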

How the data were processed

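RNA of sorted ascites macrophages was profiled by Smart-seq2, which does not mark strand. The authors cleaned reads with fastp, aligned these against mm10 (STAR 2.7.2a) and made gene counts in featureCounts. The deposited values are log2(TPM + 1), adjusted between 3 sets of libraries. The annotation and the tool of that adjustment are not given in the sources used here. The analysis was laid out for plain TPM, and the log2 values were used as deposited. TPM was obtained by back-transformation, with negative results set to 0.

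AeEM was compared with AeMM in an unpaired limma fit (version 3.58.1, R 4.3.3) with a trended variance. The 8801 genes averaging 1 TPM or more were tested. The Benjamini-Hochberg threshold was 0.05. This fit does not account for the adjustment between sets, so its p-values can be too small. The same fit with the sets as a term was therefore given beside it. Whether libraries of one number share a mouse is not stated, so p-values measure the spread between these libraries. The script for the fit was tested on simulated data.

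Named were all 8 members, other S100 genes by level, called genes of each list with up to 4 of the most abundant, and the 5 nearest profiles to *S100a4* and *S100a8*. Some genes that this rule names are not reported here. Members and lists were chosen with earlier results of these data known. Marker lists covered macrophages, neutrophils, recent monocytes, dendritic cells, large peritoneal macrophages, eosinophils, mast cells, B cells, T and NK cells, mesothelial and epithelial cells, and erythroid cells. Alternatives changed the scaling, filter, pseudocount, trend, block, sets and libraries used. Sequences came from RefSeq (GRCm38.p6) and positions from GENCODE M21.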

Additional observations from a re-analysis of the deposited data

Results flagged for a closer look

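In groups of 4 libraries, a library was singled out where its gap to the nearest other library as a share of the range of its group exceeded Dixon's critical value. Of 48 groups of the named genes, 3 were singled out, and chance singles out about 1 in 20. *S100b* was at 1.68 on the log2(TPM + 1) scale in AeEM replicate 3, against 0.11 to 0.19 in the other AeEM libraries. Those lie near the floor, and AeEM replicate 4 held the same value as AeMM replicate 3 (0.106515), which can stand for a gene with no reads. *Cd33* was at 5.22 in AeMM replicate 3, against 5.67 to 5.74 in the other AeMM libraries. *Aif1* was at 9.11 in AeMM replicate 4, against 9.30 to 9.32 in the other AeMM libraries.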

How the results depend on the processing

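Every alternative kept the direction of each of the 7 tested S100 members, over 18 alternatives each. *S100a4* ran between 0.98 and 1.46 and *S100a8* between -1.12 and -0.84, and each was past the threshold in 15 of the 18. Nothing is read from that count, since the members were chosen on this contrast and the alternatives reuse the same libraries. The 2 member calls became 0 with the replicate number as a block, with the 3 sets as a term and with replicates 3 and 4 only, and so did the 1 partner call and the 1 EF-hand call. All genes called, 212 in the fit reported, came to 5 with the replicate block, 14 with the sets as a term, 0 with replicates 3 and 4 only and 136 without the trend. By construction these fits have fewer residual degrees of freedom or, without the trend, another variance estimate. TPM without mitochondrial and ribosomal genes gave 2 partner calls (*Anxa2* and *Ryr1*). *Ryr1* averaged 0.974 TPM, so the filter of 1 TPM kept it out of the fit reported, and with no filter it was not called. Quantile scaling gave 2 EF-hand calls (*Aif1* and *Cetn3*). The cause of these added calls was not tested. Leaving out 1 library gave between 2 and 3 member calls, between 0 and 2 partner calls, between 0 and 1 receptor calls (*Cd33*, without AeMM replicate 3), 1 EF-hand call each time and between 73 and 203 calls in all. Under it *S100a11* (0.47, without AeMM replicate 3) also passed the threshold. The replicate numbers could not be read as pairs: the correlations of same-numbered deviations were -0.992, -0.999, -0.199 and -0.133, and for replicates 1 and 2 the adjustment between sets fixes the sign. Depth is unknown and 4 libraries per group limit precision.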
